A study of Mus musculus with 3 samples.

Results

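The 34 genes of glycolysis, its regulators and the pentose phosphate pathway were followed in bone marrow derived macrophages (BMDMs) exposed to the lipoproteins of *Borrelia burgdorferi* (*Bb*LP). They were chosen by gene symbol from the 32285 genes of the deposited matrices, and all 34 were found, in 35 rows, because *Aldoa* has 2. The set holds glucose and lactate transporters, the enzymes of each glycolytic step with their isozymes, the bifunctional enzymes that set fructose 2,6-bisphosphate, the entry to pyruvate dehydrogenase, *Hif1a* with the prolyl hydroxylase gene *Egln3*, and the oxidative and non-oxidative branches of the pentose phosphate pathway. The data are 3 single-cell RNA libraries. Ctrl held BMDMs labelled untreated, which the paper describes as treated with phosphate-buffered saline. LP1 held BMDMs kept with *Bb*LP at 1 µg/mL for a period of 1 hour, and LP4 held BMDMs kept at the same dose for 4 hours. All came from the marrow of female C3H/HeN mice of 6 to 8 weeks, grown in a medium conditioned by L929 cells. The cells are thus a culture model of macrophages and not macrophages of a tissue. For these libraries the paper names 3 mice with independently treated cells, while its general culture method pools marrow. The cells of 3 wells were pooled into each library, so each condition is 1 library, the spread between cultures was not measured, and no test between conditions was possible. Ctrl cells were collected with the LP4 cells, and no untreated library of the 1-hour time was analysed here.

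Glycolysis splits glucose into pyruvate in the cytosol, with an early phase that spends ATP and a later phase that returns it, and lactate dehydrogenase turns pyruvate into lactate when it is not passed to the mitochondria. The pentose phosphate pathway branches off at glucose 6-phosphate; its oxidative arm makes NADPH, which macrophages use for the oxidative burst and for lipid synthesis, and its non-oxidative arm shuffles sugars back into glycolysis or into ribose. Macrophages stimulated through Toll-like receptors are known for a raised glycolytic flux, in which the transcription factor HIF-1α, the allosteric activator fructose 2,6-bisphosphate and lactate export all take part. The libraries hold RNA alone, so enzyme amounts and flux cannot be read from them.

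The libraries differed in depth. Cells were kept if they had over 500 unique molecular identifiers (UMIs, each marking 1 captured transcript), over 500 genes and a mitochondrial share below 5%. Ctrl then had 6071 cells with a median of 5133 UMIs, LP1 had 5065 cells with 9343 and LP4 had 4670 cells with 11784. Levels are given as counts per 1000000 UMIs (CPM), from the sum of a gene over all kept cells in relation to the sum of all genes. All 13 macrophage markers looked for were at 10 CPM or more in at least 1 library, and their summed level was between 18421 and 19045 CPM in each. Markers of T cells, mast cells and erythroid cells summed to under 1 CPM in every library, with *Cd3e*, *Cd8a*, *Fcer1a*, *Hbb-bs* and *Hbb-bt* at 0. Those of neutrophils summed to 581, 493 and 739 CPM in Ctrl, LP1 and LP4, those of dendritic cells to 170.2, 170.2 and 170.3, and those of stromal cells to 7.82, 9.15 and 26.5. Only 5 of 15 neutrophil, 4 of 13 dendritic cell and 0 of 8 stromal markers reached 10 CPM in a library. Of the dendritic cell sums, *Cd74* alone made up 118, 107 and 110 CPM, so the sums rest on few markers. Members were also compared in the macrophage-like clusters alone, without the clusters named for these 3 types or for cycling cells, as given below. The separate part of each cell type in the results over all cells was not tested. Between 3 and 9 cell barcodes were shared by any pair of libraries. In sums over a library, fewer cells of a type and less RNA per cell cannot be told apart.

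A gene was called higher or lower where its CPM differed by at least 1.5-fold between 2 libraries and reached 10 CPM in the higher one. Intervals are exact at the 95% level and cover counting error only. Where 3 values are given together, they are those of Ctrl, LP1 and LP4 in this order. In LP4 against Ctrl, 31 of the 34 members reached 10 CPM. 6 of them were called higher, against 20.2% of all genes, and 6 were called lower, against 23.0% of all genes. These shares of the members, 19.4% each way, were close to those of all genes, and the counts are therefore no result about the set. Its median log2 ratio was -0.09 and that of all 8019 genes tested was -0.07. The members called higher were *Pfkfb3*, *Rpe*, *Hif1a*, *Slc16a1*, *Hk2* and *Hk3*, and those called lower were *Gapdh*, *Ldhb*, *Pgls*, *Eno1*, *Gpi1* and *Tkt*. *Rpe* and *Slc16a1* reached 10 CPM in LP4 alone, so neither could have been called lower in a comparison with LP4. The split depended on the scaling of the libraries. Under TMM scaling 6 members were higher, against 26.9% of all genes, and 3 were lower, against 15.9%. Under median-of-ratios scaling the members' counts were again 6 and 3, against 28.3% and 14.6% of all genes. The number called lower was smaller because *Gpi1*, *Eno1* and *Tkt* no longer reached 1.5-fold under either scaling, and *Tkt* was also just under it with all deposited barcodes, with no mitochondrial limit and in the macrophage-like clusters alone.

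In LP1 against Ctrl, 29 members reached 10 CPM, and their median log2 ratio of -0.14 lay below that of all genes, -0.02. None was called higher, where 4.12% of all genes were, and *Hk2* alone was called lower, where 2.74% of all genes were. In LP4 against LP1, 6 of 31 members were higher, against 16.6% of all genes, and 3 were lower, against 18.1%. The 6 were *Pfkfb3*, *Hif1a*, *Hk2*, *Rpe*, *Slc16a1* and the glucose transporter gene *Slc2a6*, and the 3 were *Gapdh*, *Ldhb* and *Pgls*. LP4 against Ctrl and LP4 against LP1 share the LP4 library.

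**Figure D1:**
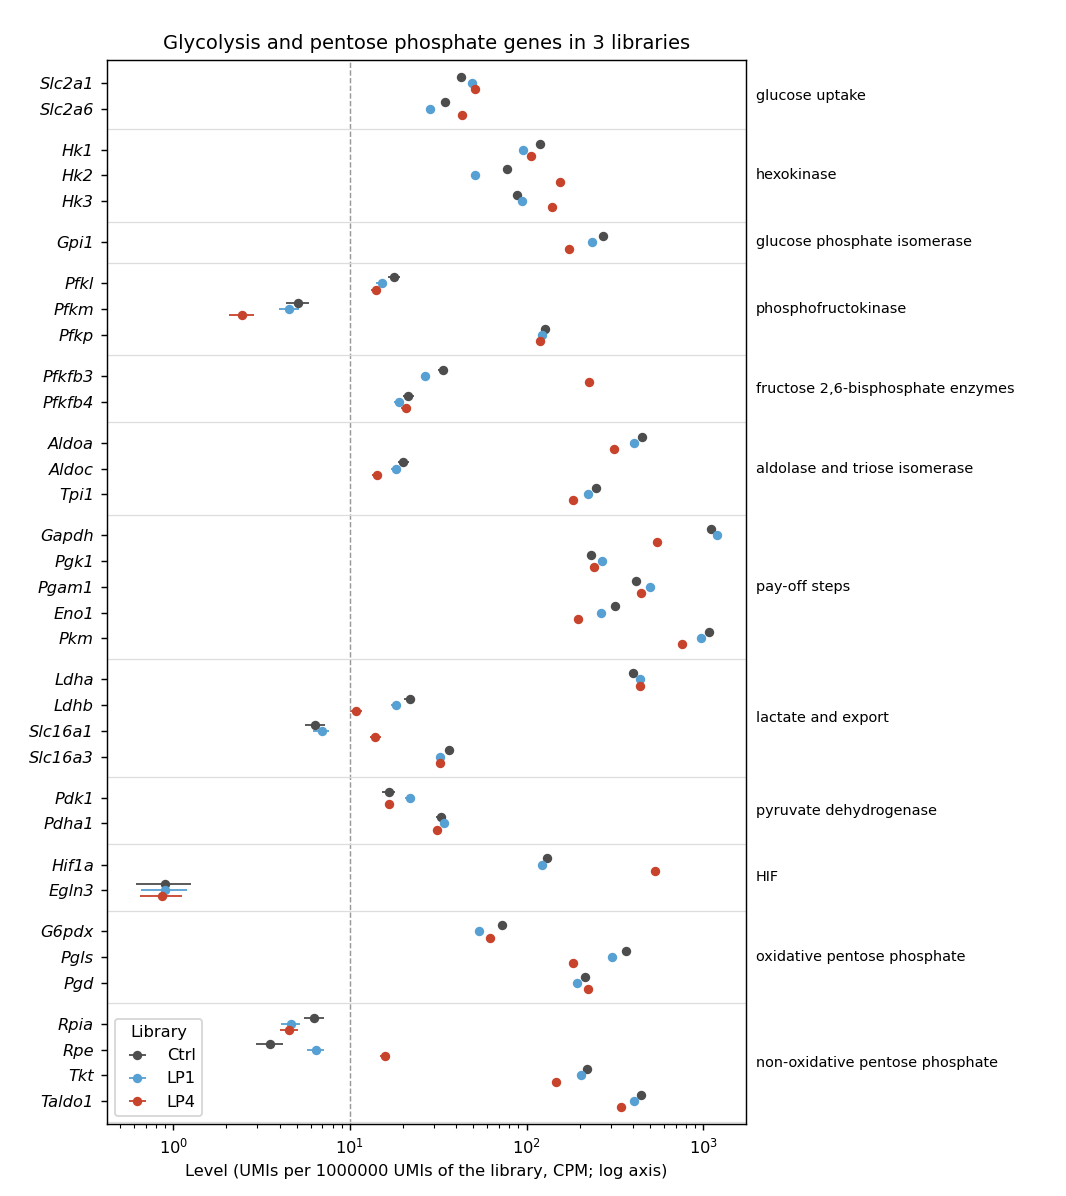
Level of each of the 34 members in Ctrl, LP1 and LP4, in CPM on a log axis, ordered by pathway step, with exact 95% counting intervals (hidden by the point where short) and a dashed line at 10 CPM. *Hif1a*, *Pfkfb3* and *Rpe* of LP4 lie far to the right of the other libraries, and *Gapdh* of LP4, at 547 CPM, lies to the left of Ctrl and LP1.

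**Figure D2:**
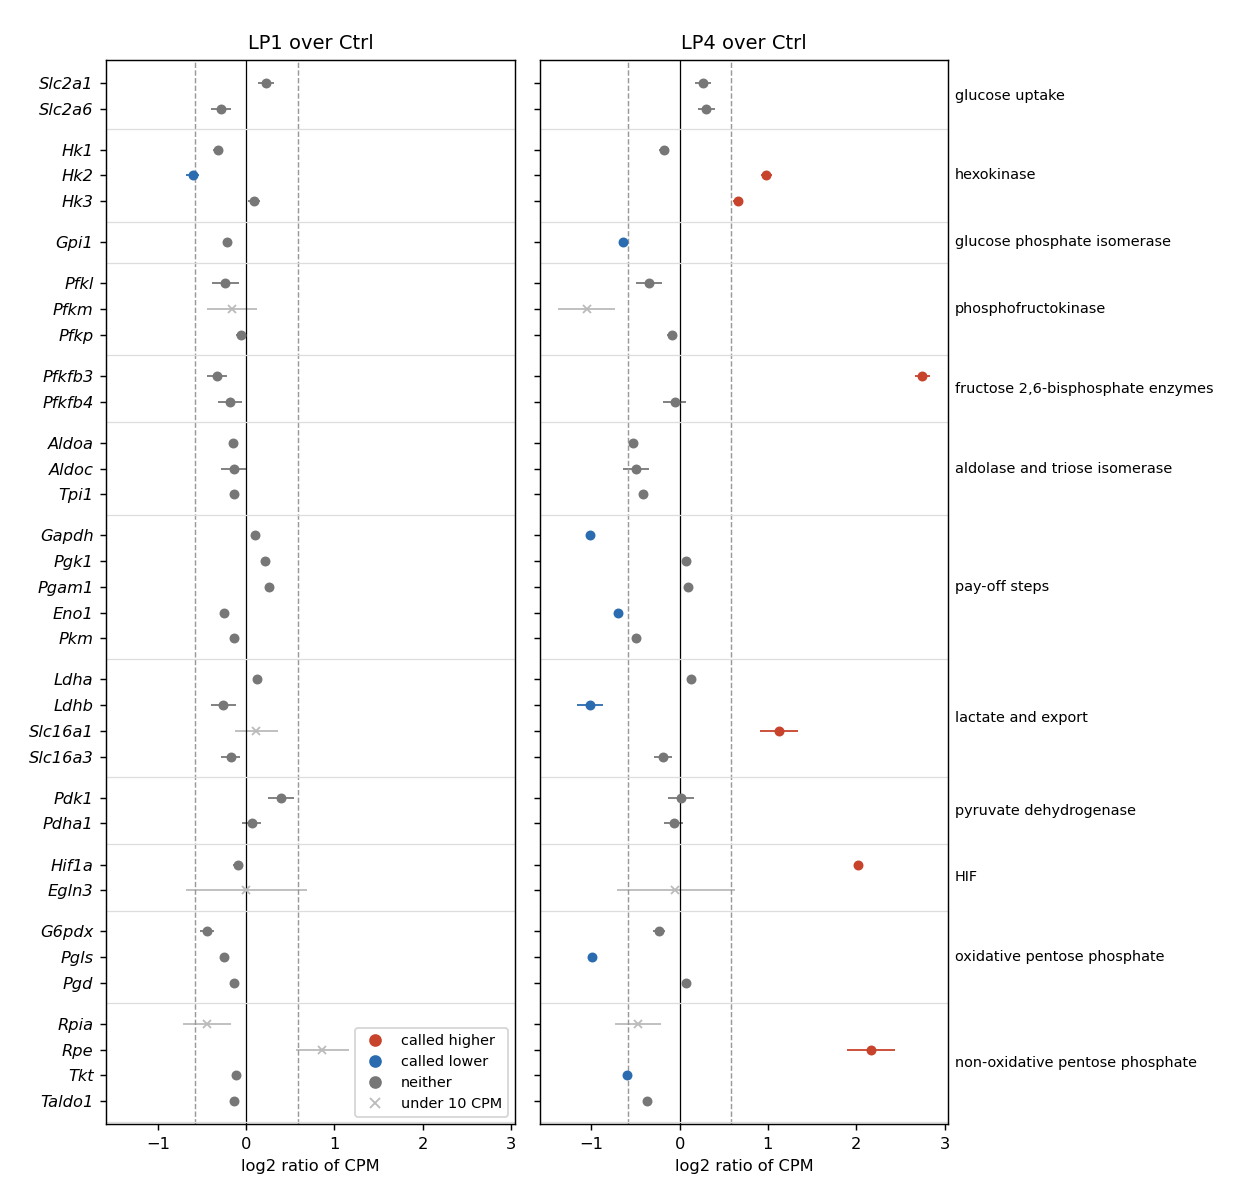
log2 ratio of CPM of each member in LP1 over Ctrl (left) and LP4 over Ctrl (right), with exact 95% counting intervals. Dashed lines mark 1.5-fold either way, and crosses are members that did not reach 10 CPM in either library of the pair. At 1 hour only *Hk2* among the tested members lies beyond a dashed line, and at 4 hours 6 lie beyond each.

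*Hif1a* encodes the oxygen-regulated subunit of HIF-1, which drives transcription of many glycolytic genes. Its level was 131 CPM in Ctrl, 123 at 1 hour and 534 at 4 hours. LP1 was just under Ctrl, and LP4 stood well above both. LP4 was 4.07-fold above Ctrl, a log2 ratio of 2.02 (1.98 to 2.07), while LP1 had a log2 ratio of -0.09 (-0.15 to -0.04). The gene lies at chr12:73901375-73947530 of the mm10 (GRCm38) build on the plus strand. It overlaps *Gm15283* on the other strand, whose UMIs numbered 1113, 973 and 2840. It also overlaps a gene of the same strand, *Gm49321*, which has no row in the matrices. Whether reads of *Gm49321* entered the count of *Hif1a* was not tested. *Egln3*, whose product marks HIF-1α for destruction, was at 0.897, 0.896 and 0.863 CPM, too low to test. Of the same family, *Egln1* was at 23.0, 35.0 and 31.0 CPM and *Egln2* at 44.9, 36.3 and 37.6. Both belong to the wider list given below, and *Egln1* was called higher in LP1 over Ctrl (log2 0.61, 0.49 to 0.73).

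*Pfkfb3* encodes the bifunctional enzyme that mainly makes fructose 2,6-bisphosphate, the strongest activator of phosphofructokinase 1. It rose more than any other member, from 33.5 CPM in Ctrl and 26.7 in LP1 to 225 in LP4. The ratio of LP4 to Ctrl was 6.72-fold (log2 2.75, 2.66 to 2.83), and *Gm10851* on the opposite strand of the locus had only 106, 61 and 159 UMIs. Its partner isozyme *Pfkfb4* was at 21.4, 18.9 and 20.7 CPM, with a log2 ratio of -0.05 (-0.18 to 0.08) at 4 hours. The isozyme shares within the pair followed from this. *Pfkfb3* made up 60.9% of the pair's UMIs in Ctrl (58.7% to 63.1%), 58.6% at 1 hour and 91.6% at 4 hours (91.1% to 92.0%).

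The promoters of 5 members are printed because they cover the members with the 3 largest rises, the hexokinase gene called in both directions and the member with the highest level in Ctrl, which was called lower. They were taken from RefSeq (GRCm38.p6), from 250 bases before to 50 bases after each annotated start, and each is written 5′ to 3′ on its gene's strand. Capitals mark the core of the hypoxia response element, ACGTG or GCGTG, read on both strands, so that CACGT and CACGC are the same motif on the other strand and CACGTG holds overlapping matches.

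Hif1a promoter, chr12:73907617-73907916, plus strand: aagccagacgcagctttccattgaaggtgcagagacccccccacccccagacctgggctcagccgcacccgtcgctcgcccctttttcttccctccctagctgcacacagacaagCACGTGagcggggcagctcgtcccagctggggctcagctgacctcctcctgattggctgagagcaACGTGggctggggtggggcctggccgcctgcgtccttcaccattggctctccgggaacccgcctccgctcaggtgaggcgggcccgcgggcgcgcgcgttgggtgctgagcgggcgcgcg
Pfkfb3 first promoter, chr2:11553880-11554179, minus strand: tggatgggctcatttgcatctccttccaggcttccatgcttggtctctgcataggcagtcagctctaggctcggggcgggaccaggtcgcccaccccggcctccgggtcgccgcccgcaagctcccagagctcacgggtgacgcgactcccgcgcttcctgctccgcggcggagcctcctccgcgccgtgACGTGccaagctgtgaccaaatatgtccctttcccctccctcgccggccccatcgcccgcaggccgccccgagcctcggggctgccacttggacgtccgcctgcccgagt
Pfkfb3 second promoter, chr2:11502041-11502340, minus strand: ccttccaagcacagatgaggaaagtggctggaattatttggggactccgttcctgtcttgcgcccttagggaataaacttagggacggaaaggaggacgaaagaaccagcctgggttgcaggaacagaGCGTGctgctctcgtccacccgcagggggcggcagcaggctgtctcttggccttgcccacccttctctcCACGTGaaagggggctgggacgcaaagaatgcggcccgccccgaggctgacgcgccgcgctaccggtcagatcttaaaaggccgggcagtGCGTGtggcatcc
Hk2 promoter, chr6:82774405-82774704, minus strand: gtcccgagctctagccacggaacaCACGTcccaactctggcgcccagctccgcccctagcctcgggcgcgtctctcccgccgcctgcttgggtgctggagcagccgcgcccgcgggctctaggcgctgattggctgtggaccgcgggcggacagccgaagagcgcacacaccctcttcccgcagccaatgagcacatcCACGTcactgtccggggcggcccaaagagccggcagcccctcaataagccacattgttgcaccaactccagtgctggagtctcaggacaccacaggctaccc
Rpe promoter, chr1:66700581-66700880, plus strand: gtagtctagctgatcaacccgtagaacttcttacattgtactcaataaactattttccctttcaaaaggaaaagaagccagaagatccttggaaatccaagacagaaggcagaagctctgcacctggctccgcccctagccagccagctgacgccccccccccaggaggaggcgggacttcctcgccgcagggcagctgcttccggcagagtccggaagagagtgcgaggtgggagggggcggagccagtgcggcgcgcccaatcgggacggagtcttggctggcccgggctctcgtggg
Gapdh promoter, chr6:125165724-125166023, minus strand: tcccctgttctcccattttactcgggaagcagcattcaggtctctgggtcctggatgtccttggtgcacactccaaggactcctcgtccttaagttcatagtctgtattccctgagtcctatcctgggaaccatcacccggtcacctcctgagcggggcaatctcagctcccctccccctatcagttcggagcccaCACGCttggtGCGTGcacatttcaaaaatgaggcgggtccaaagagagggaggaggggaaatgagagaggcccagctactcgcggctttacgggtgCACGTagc

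The core was found in both *Pfkfb3* promoters and in those of *Hif1a*, *Hk2* and *Gapdh*, and these letters did not occur in that of *Rpe*. All 34 members matched the RefSeq table, with 48 promoters in all, and 39 of them (81.3%) held the core. It occurred in 43.8% of all 32851 promoters of that length and in 63.7% of the 8375 promoters of genes that reached 10 CPM in a library. Among the members it did not separate the directions. It was in a promoter of 5 of the 6 members called higher in LP4 over Ctrl, 5 of the 6 called lower and 18 of the 19 called neither. Counted by gene in the same way, it was in 4570 of the 6522 genes that reached 10 CPM in a library. The NF-κB consensus was in 4 of the 48 promoters (8.33%), against 8.46% of all promoters and 10.7% of those of genes that reached 10 CPM. It was in 0 promoters of the members called higher, 0 of those called lower and 3 of the 27 of those called neither. A match describes the letters and is not evidence of binding.

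The hexokinases phosphorylate glucose and so hold it in the cell. *Hk2*, the inducible form, was at 77.8 CPM in Ctrl, 51.1 at 1 hour and 154 at 4 hours. It was thus called lower at 1 hour, by 1.52-fold (log2 -0.61, -0.68 to -0.53), and higher at 4 hours, by 1.98-fold (log2 0.98, 0.92 to 1.04). Its 1-hour call was lost under TMM and median-of-ratios scaling, where it came to -0.53. *Hk3*, a form found in blood leukocytes, was at 88.2 CPM in Ctrl, 93.8 at 1 hour and 140 at 4 hours, and was called higher at 4 hours (log2 0.66, 0.60 to 0.72). *Hk1*, the housekeeping form, was at 119, 95.5 and 105 CPM and was called in neither direction. Over all cells the order of the 3 forms turned. *Hk1* held 41.7% of hexokinase UMIs in Ctrl (40.8% to 42.7%), 39.7% at 1 hour and 26.4% at 4 hours (25.9% to 27.0%). *Hk2* held 27.3%, 21.3% and 38.6%, so that over all cells it was the smallest share in Ctrl and LP1 and the largest in LP4. The summed level of the 3 genes was 285, 240.4 and 399 CPM. UMIs were counted from 3′ chemistry, 1 per captured molecule, so the shares are of molecules captured, and capture may differ between genes. Whether intronic reads were counted is not given, and a part of gene length in the shares was not tested.

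**Figure D3:**
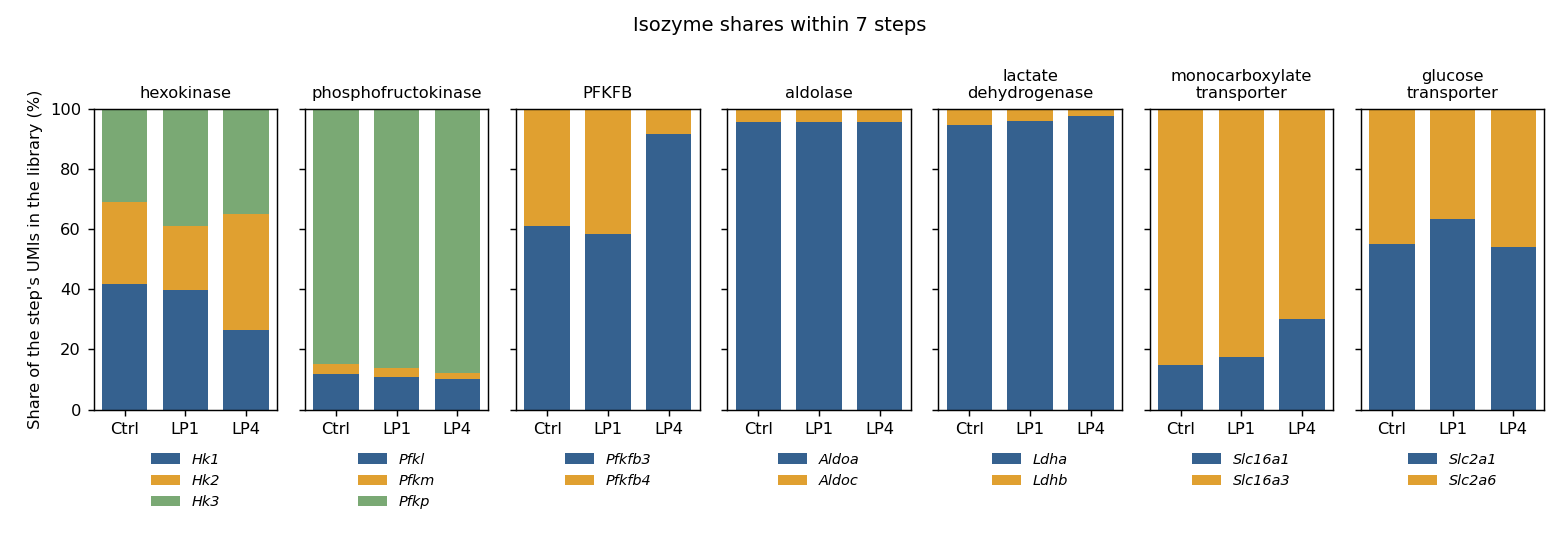
Share of each isozyme in the UMIs of its step (percent, bars stacked to 100) in Ctrl, LP1 and LP4, for 7 steps with more than 1 member. PFKFB stands for the enzymes that make and break fructose 2,6-bisphosphate. *Pfkfb3* reaches 91.6% and *Hk2* 38.6% in LP4, while aldolase stays near 95.7% *Aldoa* in each library.

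Glucose uptake genes were called in neither direction against Ctrl. *Slc2a1*, the ubiquitous glucose transporter GLUT1, was at 42.4 CPM in Ctrl, 49.4 at 1 hour and 50.8 at 4 hours, a log2 ratio of 0.26 (0.17 to 0.35) at 4 hours. *Slc2a6*, a transporter of the lysosomal membrane, was at 34.7, 28.5 and 42.8 CPM. Its 1.51-fold rise from LP1 to LP4 was at the threshold, and was lost when the macrophage-like clusters alone, or CPM without mitochondrial and ribosomal protein genes, were used.

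Of the genes between hexokinase and triose phosphate, only *Gpi1* was called. *Gpi1*, glucose 6-phosphate isomerase, was at 271 CPM in Ctrl, 234 at 1 hour and 174 at 4 hours, which was 1.56-fold lower than Ctrl (log2 -0.64, -0.68 to -0.60). The phosphofructokinase genes encode subunits of the first committed step of glycolysis. *Pfkp* made up most of them, at 127, 122 and 119.7 CPM. *Pfkl* was at 17.8, 15.1 and 14.0 CPM, and *Pfkm*, the muscle form, was too low to test at 5.07, 4.54 and 2.44 CPM. Beside the rise of *Pfkfb3*, the 3 genes of the enzyme that its product activates summed to 149.9, 141 and 136 CPM. The aldolase genes and the triose isomerase gene had log2 ratios below 0 at both times and did not reach 1.5-fold. *Aldoa* was at 451, 405 and 312 CPM, *Aldoc* at 20.1, 18.2 and 14.3, and *Tpi1* at 246, 223 and 184, with log2 ratios to Ctrl at 4 hours between -0.53 and -0.42. The second *Aldoa* row had 7, 6 and 3 UMIs and was left aside.

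The genes of the later phase, which yields ATP and NADH, did not move as a block. *Gapdh*, glyceraldehyde 3-phosphate dehydrogenase and a common reference gene, had the highest level of all members in Ctrl and LP1, at 1109.9 CPM in Ctrl, 1189 at 1 hour and 547 at 4 hours. LP4 was 2.03-fold below Ctrl (log2 -1.02), with counting intervals of 541 to 553 CPM in LP4 and 1099 to 1121 in Ctrl. *Eno1*, the enolase gene, was at 317, 266 and 196 CPM and was called lower at 4 hours (log2 -0.69, -0.73 to -0.66). It may share reads with *Eno1b*, a near-identical copy that was at 6.28, 5.95 and 5.36 CPM, so its value is uncertain to that extent. *Pkm*, pyruvate kinase, was at 1075, 976 and 761 CPM, a log2 ratio of -0.50 that did not reach the threshold. Against these, *Pgk1*, the phosphoglycerate kinase gene, was at 231, 267 and 242 CPM, and *Pgam1*, the phosphoglycerate mutase gene, was at 417, 498 and 445 CPM. Both had their highest level in LP1, and their log2 ratios at 4 hours were 0.07 (0.03 to 0.11) and 0.09 (0.06 to 0.12). *Gapdh* and *Pgk1*, which encode consecutive enzymes, thus differed by more than 1 log2 unit in their ratio of LP4 to Ctrl. Genes of this chain have processed pseudogenes, and reads that such copies share may be lost or split in counting.

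Lactate dehydrogenase is a tetramer of the *Ldha* and *Ldhb* products, and the *Ldha* form favours lactate production. *Ldha* was at 401 CPM in Ctrl, 437 at 1 hour and 438 at 4 hours, a log2 ratio of 0.13 (0.10 to 0.16) at 4 hours. *Ldhb* was at 21.8, 18.2 and 10.8 CPM, 2.02-fold lower in LP4 than in Ctrl (log2 -1.01, -1.17 to -0.86). The *Ldhb* share of the pair was 5.15% in Ctrl (4.81% to 5.52%), 4.00% at 1 hour and 2.41% at 4 hours (2.23% to 2.60%). Lactate leaves through monocarboxylate transporters. *Slc16a1* (MCT1) was at 6.39, 6.92 and 14.0 CPM, 2.18-fold higher in LP4 than in Ctrl (log2 1.13, 0.92 to 1.34). *Slc16a3* (MCT4), the form linked with lactate export from glycolytic cells, was higher in level but was called in neither direction, at 36.6, 32.4 and 32.2 CPM. *Slc16a1* therefore made up 14.9% of the pair's UMIs in Ctrl and 30.3% in LP4. At the entry to the mitochondrial pathway, *Pdk1*, which encodes a kinase that switches pyruvate dehydrogenase off, was at 16.6, 21.8 and 16.7 CPM, and *Pdha1*, a subunit of that enzyme, at 32.6, 34.1 and 31.2. Neither was called.

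The oxidative pentose phosphate arm was uneven. *G6pdx*, which encodes the enzyme that commits glucose 6-phosphate to the pathway, was at 72.9 CPM in Ctrl, 53.5 at 1 hour and 62.0 at 4 hours, with log2 ratios of -0.45 (-0.52 to -0.37) and -0.23 (-0.30 to -0.16). *Pgls*, the lactonase gene, was at 364, 307 and 183 CPM, 1.98-fold lower in LP4 than in Ctrl (log2 -0.99, -1.02 to -0.95). *Pgd*, which encodes the enzyme of the last step of this arm, was at 214, 194 and 224 CPM and was not called. The gene called lower is thus flanked in the pathway by genes that did not reach the threshold.

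In the non-oxidative arm, *Rpe*, which encodes ribulose 5-phosphate epimerase, was at 3.53 CPM in Ctrl, 6.40 at 1 hour and 15.8 at 4 hours. It was 4.47-fold higher in LP4 than in Ctrl (log2 2.16, 1.89 to 2.44), on 126 and 970 UMIs. Its ratio of LP1 to Ctrl was 1.81-fold (log2 0.86, 0.56 to 1.17), but neither library reached 10 CPM. The 3′ end of *Rpe* overlaps that of *Kansl1l* on the opposite strand, whose UMIs numbered 1489, 2381 and 1276. *Rpia*, the isomerase gene beside it in the pathway, was at 6.30, 4.63 and 4.54 CPM and was not tested. The transketolase gene *Tkt* was at 220.2, 203 and 146 CPM, 1.51-fold lower in LP4 than in Ctrl (log2 -0.59, -0.64 to -0.55), and the transaldolase gene *Taldo1* was at 442, 403 and 343 CPM. *Rpe* was the only member of either arm called higher, and it had the lowest level of the 7 genes in Ctrl. It reached 10 CPM in LP4 alone, so it could not have been called lower.

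Summed over the 14 genes from *Gpi1* to *Ldhb* that encode the chain from the isomerase to lactate, the level was 4710 CPM in Ctrl, 4673 at 1 hour and 3460 at 4 hours. The log2 ratio of LP4 to Ctrl was -0.44 (-0.45 to -0.44), and without *Gapdh* it was -0.31 (-0.32 to -0.30). These sums were not recomputed under TMM or median-of-ratios scaling, and their intervals do not cover the choice of scaling. Another scaling moves all genes of a library alike. Under median of ratios *Gapdh* came to -0.81, from -1.02, so the size of the summed fall depends on the scaling. Per cell, the chain took a median of 0.438% of a cell's UMIs in Ctrl, 0.435% at 1 hour and 0.319% at 4 hours. The middle 50% of these cells ran from 0.316% to 0.551% in Ctrl and from 0.239% to 0.401% in LP4, so the cells of the libraries overlapped. On the scale of UMIs per cell the picture differed, since LP4 held 2.24 times as many UMIs per cell as Ctrl. The chain had 27.7 UMIs per cell in Ctrl, 48.4 at 1 hour and 45.5 at 4 hours. *Gapdh* had 6.52, 12.3 and 7.19 UMIs per cell, and all 31 members tested had more UMIs per cell in LP4 than in Ctrl, from 1.10-fold to 15.0-fold. The median member had 2.11 times as many, and the median gene of all tested had 2.12 times as many. Any gene less than 2.24-fold lower in CPM must have more UMIs per cell in LP4 than in Ctrl. Among the tested members the largest fall was 2.03-fold, that of *Gapdh*, so the direction per cell follows from the depth. From LP1 to LP4, 21 of 31 members had more UMIs per cell, and *Gapdh*, *Ldhb* and *Pgls*, the members called lower there, had fewer, at 0.584, 0.752 and 0.759 times the number in LP1. LP4 held 1.27 times as many UMIs per cell as LP1, so any gene called 1.5-fold lower there must have fewer per cell. The median member had 1.18 times as many as in LP1 and the median gene 1.21 times. The share of all genes with more UMIs per cell was not counted for either comparison. Whether a cell held more RNA or was sequenced more deeply cannot be told apart here, so a member called lower in LP4 over Ctrl had a smaller share of the transcripts captured but not fewer of them per cell.

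Members were compared within clusters of cells that were made without the 34 genes and without the wider pathway list. Genes whose CPM differed by 1.5-fold or more between libraries were also left out, so the clusters rest on genes that differed little between libraries. Clusters are given by letter. Clusters A to D held 4623, 4152, 2925 and 2672 cells and expressed macrophage genes, cluster E held 1083 cells led by cell cycle genes, and cluster F held 204 led by MHC class II genes and *Ccl22*. Only these 6 had at least 50 cells in every library. *Hif1a*, *Pfkfb3*, *Hk2*, *Hk3*, *Slc16a1* and *Rpe* had a log2 ratio of LP4 to Ctrl above 0 in each of the 6, and *Gapdh*, *Eno1*, *Gpi1*, *Ldhb*, *Pgls* and *Tkt* had one below 0 in each. These cells are among those that gave the calls, so the shared signs are not separate support. In cluster F *Rpe* had no UMI in Ctrl and *Slc16a1* had 1, against 16 and 21 in LP4, so its values there are weak. The order of the hexokinase forms over all cells did not hold in each cluster. In LP4 *Hk2* had the most UMIs of the forms in clusters A, B, D and F. *Hk3* had the most in clusters C and E, at 2361 and 570 against 1471 and 520 of *Hk2*. In Ctrl *Hk2*, with 584 and 47 UMIs, was not the smallest in clusters A and F.

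The size was even between clusters for some members and uneven for others. *Gapdh* ranged from -1.07 in cluster B to -0.85 in cluster F. *Hk2* ranged from 0.14 (0.02 to 0.27) in cluster C to 1.49 (1.36 to 1.62) in cluster A. In cluster C *Hk2* stood at 94.4 CPM in Ctrl and 104.2 in LP4, and in cluster A at 76.1 and 213. *Pfkfb3* was likewise least raised in cluster C, at 2.01 (1.84 to 2.18), against 3.05 (2.86 to 3.24) in cluster A, and *Hif1a* at 1.61 (1.51 to 1.71) against 2.33 (2.24 to 2.43). *Slc2a1*, not called over all cells, had a log2 ratio of 1.19 (0.95 to 1.43) in cluster A and -0.31 (-0.47 to -0.14) in cluster C. Its level in Ctrl was 24.2 CPM in cluster A and 63.0 in cluster C, and in LP4 it was 55.1 and 50.9. Cluster C was led by *Mgll*, *Eef1a2* and *Mmp9*, and cluster A by *Egr3*, *Ms4a6b* and *Nr4a3*. The median UMI count of the cells, relative to that of their library, was 0.739 or more in cluster A and 1.28 or more in cluster C, and the part of depth was not tested. The intervals of clusters A and C do not overlap for these 4 genes. They cover counting error in 1 library each, and the difference between clusters was not tested over cultures. It also depended on how finely cells were clustered. At a resolution of 0.3 *Hk2* ranged from 0.73 to 1.48 over 3 clusters and *Slc2a1* from 0.01 to 1.10. At a resolution of 0.8, leading genes of cluster A led separate clusters, 1 with *Egr3* and *Nr4a3* that held 25.3% of the cells of Ctrl and 1.80% of those of LP4, and 1 with *F13a1* and *Ms4a4a* that held 4.23% and 26.3%. Whether cluster A held the same kinds of cells in Ctrl and LP4 was not tested.

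**Figure D4:**
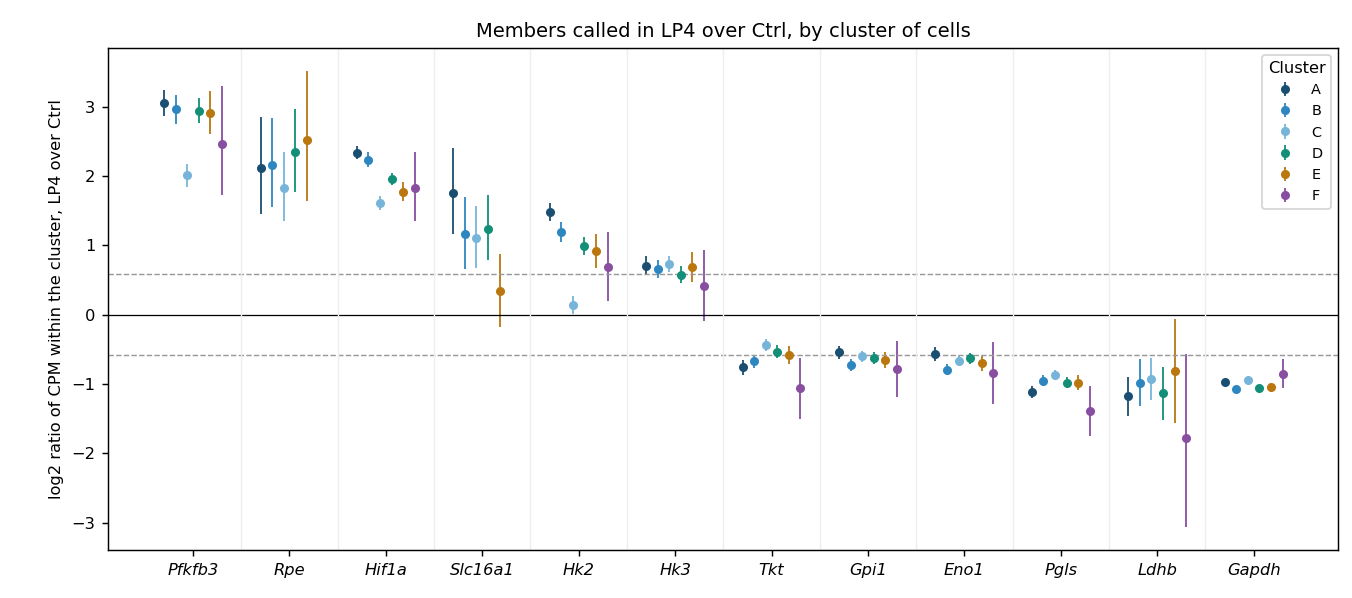
log2 ratio of CPM, LP4 over Ctrl, within clusters A to F for the 12 members called over all cells, with exact 95% counting intervals and dashed lines at 1.5-fold. *Rpe* and *Slc16a1* of cluster F are not drawn, having 3 or fewer UMIs in Ctrl. *Hk2*, *Pfkfb3* and *Hif1a* are lowest in cluster C, and *Gapdh* varies little.

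Shares of cells with a transcript were compared at an equal depth of 2000 UMIs drawn from each cell, a depth that 122 cells of Ctrl, 13 of LP1 and 45 of LP4 did not reach. A UMI of *Hif1a* was found in 22.3% of cells in Ctrl (21.2% to 23.4%), 21.3% at 1 hour and 60.9% at 4 hours (59.5% to 62.3%), and without thinning in 48.5%, 63.2% and 96.0%. For *Pfkfb3* the shares were 6.34%, 4.83% and 30.9%, and without thinning 15.7%, 20.6% and 68.2%. *Gapdh* had a UMI in 84.2%, 85.8% and 60.6% of thinned cells, against 95.2%, 99.3% and 95.5% without thinning. No cell type in these cultures lacks glycolysis, so no background share from free RNA could be read from another type, and the part of free RNA in these shares was not tested. In the neutrophil-like cluster, 29 cells of LP4 had a UMI of *Hif1a* in 41.4% of cells (23.5% to 61.1%) after thinning, from a median of 9303 UMIs, against 11838 in all cells.

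A wider list of 77 genes of the same metabolism held further isozymes, pyruvate entry, glycogen and gluconeogenesis genes and HIF regulators and targets. In LP4 over Ctrl 42 of them reached 10 CPM, 7 were called higher and 7 lower (16.7% each way, against 20.2% and 23.0% of all genes), with a median log2 ratio of -0.14, beside -0.07 for all genes. In LP1 over Ctrl 2 of 39 were called higher and 3 lower (5.13% and 7.69%, against 4.12% and 2.74% of all genes). The 3 called lower lay near the threshold, as given below. *Vegfa*, a HIF target that encodes an angiogenic factor, was at 74.8 CPM in Ctrl, 52.3 at 1 hour and 4.90 at 4 hours, a log2 ratio of -3.93 (-4.11 to -3.76) at 4 hours. *Ddit4*, another HIF target and an inhibitor of mTORC1 signalling, was at 2.55, 2.10 and 21.6 CPM (log2 3.08, 2.77 to 3.40). These 2 targets thus lay at opposite ends. Of the 14 HIF regulators and targets that reached 10 CPM, 4 were higher (28.6%, against 20.2% of all genes), 1 was lower (7.14%, against 23.0%) and 9 were neither.

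*Mpc1*, a subunit of the mitochondrial pyruvate carrier, was at 62.5, 124 and 143 CPM and was called higher at both times. *Dld*, the dehydrogenase shared by the pyruvate and 2-oxoglutarate complexes, was at 29.3, 36.6 and 55.0 CPM and was higher at 4 hours. *Arnt*, the partner subunit of HIF-1α, was at 36.4, 34.3 and 55.9 CPM and *P4ha1*, a collagen prolyl hydroxylase gene, at 51.4, 61.3 and 90.3, both higher at 4 hours. The others named by size were lower at 4 hours. *Pck2*, the mitochondrial form of the gluconeogenic carboxykinase, was at 12.4, 8.21 and 3.27 CPM, and *Eno2*, a second enolase gene, at 30.2, 22.9 and 12.8. *Pygl*, a glycogen phosphorylase gene, was at 58.8, 38.1 and 35.0 CPM, and *Pgm1*, which links glycogen to glucose 6-phosphate, at 20.7, 13.7 and 13.6. The transporter genes *Slc16a7* and *Slc2a8* were at 19.6, 19.2 and 11.3 CPM and at 12.1, 11.9 and 7.23 CPM. *Pygl*, *Pgm1* and *Pck2* were also called lower at 1 hour, with log2 ratios of -0.63, -0.59 and -0.60, near the 1.5-fold threshold. Calls of the wider list, at either time, were not recomputed under TMM or median-of-ratios scaling. Under these the similar 1-hour call of *Hk2* (-0.61) was lost.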

How the data were processed

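RNA of single BMDMs was captured with droplet-based 3′ chemistry in 1 library each of Ctrl, LP1 and LP4. The authors aligned the reads to mm10 with Cell Ranger (7.1.0 per the file headers) and deposited UMI counts per gene and cell barcode, without normalization; whether intronic reads were counted is not given in the sources used here. Their totals were 35749924 (Ctrl), 52773906 (LP1) and 64787139 (LP4), of which 35688939, 52475723 and 61402275 were in the cells kept. The intervals below follow from these depths.

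The members and the wider and marker lists were chosen with earlier results of these data known. UMIs were summed over kept cells and scaled to CPM. Intervals at 95% were exact Poisson ones (CPM), exact binomial ones conditional on the sum of both counts (log2 ratios) and Clopper-Pearson ones (shares). With 0 counts a floor of 3 counts over the library or cluster was used. All 34 members are named, and of the wider list the 12 called genes with the largest ratio, besides *Egln1*, *Egln2* and *Eno1b*. Doublet scores were used only in an alternative, and no cell was removed as a doublet. Cells were clustered by the Leiden method at a resolution of 0.5, with each gene centred in its library and a seed of 20. The 2000 variable genes used were picked from 5187 genes whose CPM differed by less than 1.5-fold between libraries. Mitochondrial and ribosomal protein genes were left out as well. The calculation was checked on simulated Poisson counts without spread between cells or cultures, with all changes larger than the 1.5-fold threshold. There 100% of 200 changed genes were called in their true direction in each comparison. For LP4 over Ctrl, 95.2% of intervals held the true ratio, over 7578 genes. With these settings the check cannot show how well calls hold between cultures. Python 3.11.15, scipy 1.17.1, scanpy 1.11.5, leidenalg 0.10.2, and R 4.3.3 with edgeR 4.0.16 (TMM only) were used. Alternatives were other cell filters, doublet removal, macrophage-like clusters alone, other scalings, 2-fold, no CPM minimum, and other thinning depths and resolutions. Motifs were searched in RefSeq promoters.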

Additional observations from a re-analysis of the deposited data

How the results depend on the processing

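The numbers of members called were the same or within 1.5 times of those reported under each change of cell filter, the removal of the 5% of cells with the highest doublet scores, the macrophage-like clusters alone, the mean of cell shares and CPM without mitochondrial and ribosomal protein genes. No called member changed sign over all cells. Of the members' lowest and highest log2 ratios over clusters, 103 moved by at least 0.1 at a resolution of 0.3 and 101 did not, against 110 and 94 at 0.8. At 0.8, *Rpe* (-0.26), *Slc16a1* (-0.26) and *Ldhb* (0.32) had the other sign in LP4 over Ctrl in 1 unnamed cluster of 147 cells, whose intervals included 0. TMM moved the median log2 ratio of all genes by 0.18 and median of ratios by 0.22 in LP4 over Ctrl. Under each, 3 members were called lower there, namely *Gapdh*, *Ldhb* and *Pgls* (15.9% and 14.6% of all genes). In LP1 over Ctrl 0 were called lower under each (1.77% and 1.74% of all genes). *Hk3* was then also higher in LP4 over LP1, and uncalled members near 0, such as *Pfkp*, changed sign. At 2-fold, 4 members were higher and 2 lower in LP4 over Ctrl (10.6% and 9.91% of all genes), 1 was lower in LP4 over LP1 (7.55% of all genes) and 0 were lower in LP1 over Ctrl (0.465% of all genes). With no CPM minimum but at least 20 UMIs over the pair, 1 member, *Rpe*, was higher in LP1 over Ctrl (5.77% of all genes). *Pfkm* was then also lower in LP4 over Ctrl (-1.05) and in LP4 over LP1 (-0.89). This made 7 and 4 of 34 members lower, against 29.4% and 24.4% of all genes. Of the shares of cells with a UMI, 99 moved beyond their counting interval at 1000 UMIs and 3 did not, since fewer UMIs are drawn, and all 102 moved without thinning. *Egln3*, *Pfkm* and *Rpia* stayed under 10 CPM in each library, and of these *Egln3*, with 32 to 53 UMIs, had an interval of -0.71 to 0.63 in LP4 over Ctrl. No paired analysis was possible because each condition is 1 library. Leaving out a replicate was not possible for the same reason.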
